A study of Mus musculus with 2 samples.

Results

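The genes described here belong to the renin-angiotensin and kallikrein-kinin systems, and 9 of them were chosen by symbol from the 24091 genes of the deposited table. They were Ace, Agt, Agtr1a, Agtr2, Agtrap, Enpep, Mme, Bdkrb1, and Bdkrb2. The levels of all 9 were compared between 2 RNA sequencing libraries of cultured cells from the gonadal fat of C57BL/6 mice, 1 from sham-irradiated mice and 1 from mice whose pelvis was irradiated. The labels give the radiation as 7.5 Gy for 5 days, and their wording does not settle whether 7.5 Gy was the daily or the total dose. Fat was taken 2 months after radiation, digested with collagenase, and spun, and the floating cells were kept in culture for 3 days before polyadenylated RNA was extracted. Both titles also name PBS, and the labels do not say how it was used. The sex and age of the mice and the number of mice behind each library are not given in the labels.

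Angiotensinogen, encoded by Agt, is cut by renin to angiotensin I, which angiotensin-converting enzyme (Ace) shortens to angiotensin II. Angiotensin II acts on the type 1 receptor (Agtr1a in most mouse tissues) to raise vascular tone and on the type 2 receptor (Agtr2) with largely opposing effects. Kinins are short peptides released from kininogens by kallikreins, and they act on the B2 receptor, present in many resting tissues, and on the B1 receptor, which is induced by inflammation and tissue injury. The systems share enzymes, since angiotensin-converting enzyme and neprilysin (Mme) also degrade bradykinin. Fat tissue is a known source of angiotensinogen.

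The ligand and the enzymes of the set can be shown by the sequences at which they act. The first line below gives the stretch of Agt that codes for angiotensin I, chr8:124564450-124564479 on the minus strand in exon 2 of the longest coding transcript (GRCm38, GENCODE transcripts), where the whole coding part is in capitals. The other lines give the codons of the zinc-binding motif that marks the active site of these metallopeptidases, in capitals, between flanks of 15 bases in lower case. Ace carried the motif in 2 places, in exon 8 at chr11:105972895-105972939 and in exon 20 at chr11:105985079-105985123, both on the plus strand. Mme carried it once, at chr3:63362006-63362050 on the plus strand in exon 18. Enpep also carried it once, and its printed stretch, flanks included, crosses an exon junction within chr3:129309124-129309801 on the minus strand.
Agt, angiotensin I: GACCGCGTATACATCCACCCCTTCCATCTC
Ace, first site: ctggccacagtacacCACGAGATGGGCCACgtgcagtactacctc
Ace, second site: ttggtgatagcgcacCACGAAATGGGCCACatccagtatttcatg
Enpep: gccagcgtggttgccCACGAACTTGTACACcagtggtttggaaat
Mme: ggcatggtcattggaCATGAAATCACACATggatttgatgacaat

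The deposited values are log2 of FPKM plus 0.1, where FPKM divides the fragments on a gene by its length in kilobases and by the library total in units of 1000000. Levels can thus be compared between genes of unequal length as far as the deposited lengths hold. The deposited coordinates shared a start or end with GENCODE for 4 of the 9 genes, and levels were not recomputed with other lengths. The values of genes with few fragments fell on whole multiples of 1 step, which put the sham library at about 30600000 fragments and the irradiated one at 35000000, and the fragments on each gene were computed from these totals. With 1 library per condition, there was no test and no p-value, and each difference is irradiated minus sham on the log2(FPKM + 0.1) scale. Intervals are exact 95% intervals of the fragments (Poisson for a level, Clopper-Pearson for a ratio between libraries) and cover counting error only, since copies made by PCR are not independent molecules and the spread between mice or cultures is not included. Beside a difference, the interval given in parentheses is that of the log2 ratio of fragments per library total. A gene is called expressed here if it reached an FPKM of 1 in either library, which held for 11253 genes, and their median difference was 0.02.

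Markers of the labelled cell type were checked first. Adipoq, the adipokine that defines mature adipocytes, had 5 fragments in the sham library and 10 in the irradiated library, and 9 of the 12 adipocyte markers listed were below an FPKM of 1 in both. Fabp4, a fatty acid carrier also found in other cells, was at 96.9 in both. The other markers of this list that reached an FPKM of 1 were Pnpla2, at 5.11 and 5.76, and Pparg, at 4.59 and 4.69 (sham and irradiated library). Of the 12, 10 were higher in the irradiated library and 1 was lower, beside 9440 and 7558 of the 24091 listed genes. Of the 3 expressed, 2 were higher. The interval of the ratio lay above 0 for 2, Plin1 (difference 0.71) and Plin4 (0.67), beside 12.9% of listed genes. Both were below an FPKM of 1, and no adipocyte marker had an interval below 0. All 12 fibroblast and progenitor markers were expressed, with a summed FPKM of 5239 in the sham and 4312 in the irradiated library. The levels below therefore cannot be assigned to adipocytes, and whether the culture was a mixture of cell types was not tested. In bulk RNA, fewer cells of a type and less RNA per cell cannot be told apart.

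Most of the system was present at low to moderate levels, and its order hardly differed between the libraries. In the sham library, Enpep was highest at an FPKM of 10.7 (interval 10.1 to 11.2), followed by Bdkrb1 at 10.2 (9.29 to 11.3), Agtrap at 6.40, Ace at 4.10, Agtr1a at 3.29, Agt at 2.09, Bdkrb2 at 1.06, Mme at 0.147, and Agtr2 at 0.0224. In the irradiated library, Bdkrb1 was highest at an FPKM of 11.2 (10.3 to 12.2), followed by Enpep at 9.96 (9.46 to 10.5), Agtrap at 6.13, Ace at 4.40, Agtr1a at 2.71, Agt at 2.26, Bdkrb2 at 1.62, Mme at 0.216, and Agtr2 at 0.0103. The only change of place was between Enpep and Bdkrb1, whose counting intervals overlapped in both libraries. The ratio of Bdkrb1 to Enpep per length was 0.960 (0.859 to 1.07) in the sham library and 1.13 (1.02 to 1.25) in the irradiated library. Its interval excluded 1 in the irradiated library, so overlapping intervals of levels do not show that the levels were equal. Of the 8 pairs of neighbours in the order, 7 had intervals that did not overlap in the sham library and 5 in the irradiated library, where those of Agtr1a and Agt and those of Agt and Bdkrb2 overlapped too. Set against all listed genes, Enpep exceeded 79.9% of them in the sham library and Agt 59.8%. Of the 24091 listed genes, 7656 had no fragments in that library and 11018 reached an FPKM of 1.

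**Figure D1:**
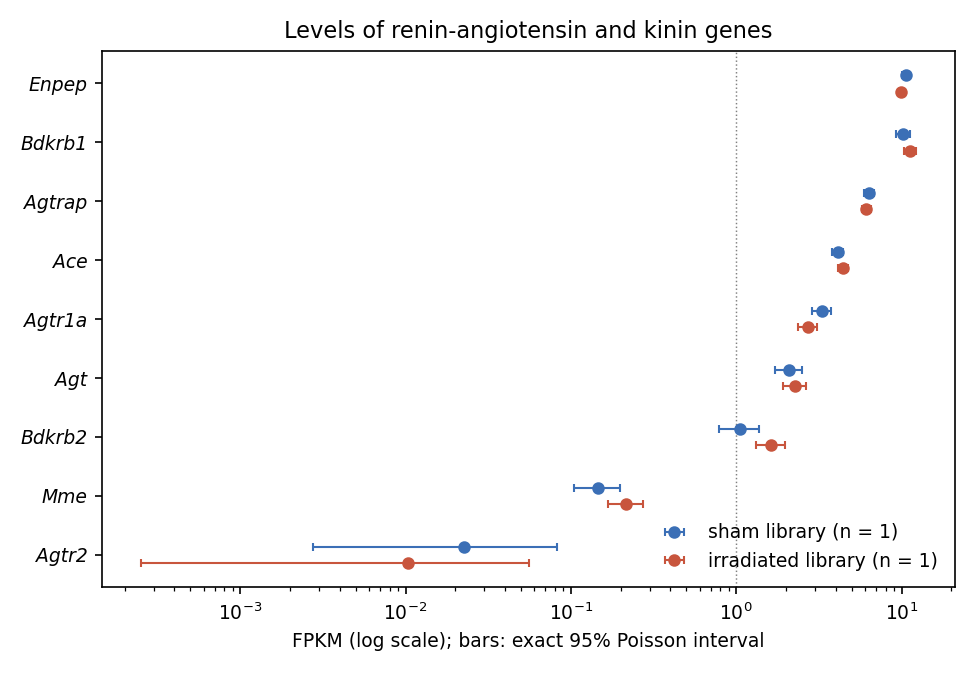
FPKM of the 9 genes on a log axis in the sham (blue) and irradiated (red) library, 1 library each, with exact 95% Poisson intervals as error bars and a dotted line at an FPKM of 1. Enpep and Bdkrb1 lie near 10 in both libraries, while Mme and Agtr2 lie below 1.

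None of the 9 genes differed between the libraries by the fold used here, a difference of at least 1 on the log2 scale. Of the 7 that were expressed, 0 passed, beside 1.16% of the 11253 expressed genes (0.791% higher and 0.373% lower in the irradiated library). A difference of at least 0.5 was found for 1 of the 7, Bdkrb2, which was higher, beside 5.75% of expressed genes (4.31% higher and 1.44% lower). The counting interval of the ratio excluded 0 for 2 of the 7, beside 41.2% of expressed genes. It was above 0 for 1, Bdkrb2, and below 0 for 1, Agtr1a, beside 23.8% and 17.4%. With Mme and Agtr2 included, it excluded 0 for 2 of all 9, beside 21.6% of the 24091 listed genes (12.9% above and 8.76% below 0). The median difference of the 7 genes was 0.10 against 0.02 over the 11253 expressed genes. In the irradiated library, 4 of the 7 were higher, beside 6020 of the 11253.

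**Figure D2:**
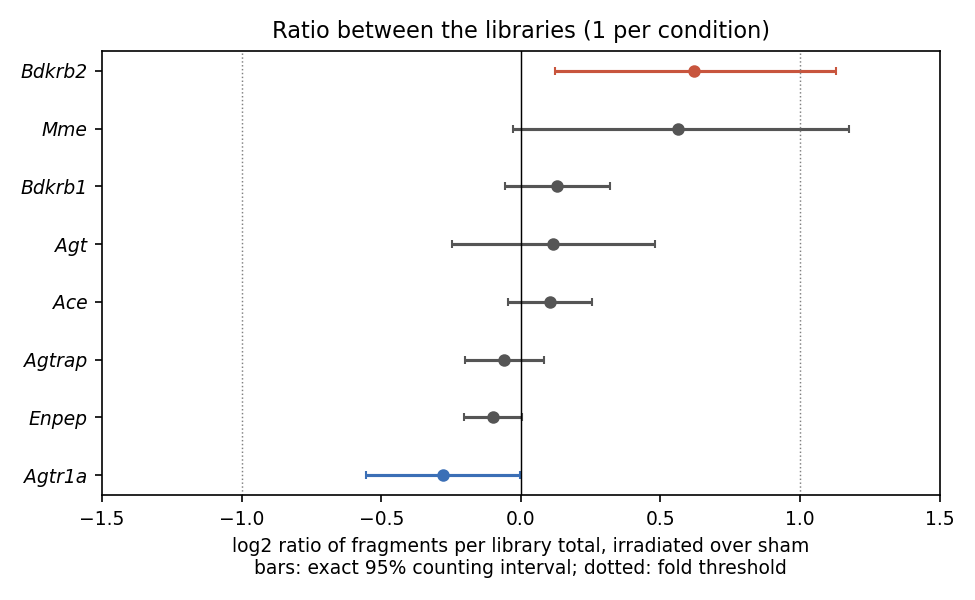
Log2 ratio of fragments per library total, irradiated over sham, for the 8 genes other than Agtr2, with exact 95% counting intervals as error bars and dotted lines at the fold threshold of 1. The interval of Bdkrb2 lies above 0, that of Agtr1a ends just below 0, and the other 6 include 0.

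Angiotensinogen transcripts were few. Agt (chromosome 8, positions 124556587 to 124569707) had an FPKM of 2.09 on 117 fragments in the sham library and 2.26 on 145 fragments in the irradiated library. The difference was 0.11, and the interval of the ratio ran from -0.25 to 0.48, so a difference was not detectable at this depth. The Agt start site had the TATA motif (TATAAA) at positions -30 to -25, counted from the start and shown in capitals in the 250 bases before the start.
Agt, chr8:124569707-124569956, minus strand (RefSeq, GRCm38): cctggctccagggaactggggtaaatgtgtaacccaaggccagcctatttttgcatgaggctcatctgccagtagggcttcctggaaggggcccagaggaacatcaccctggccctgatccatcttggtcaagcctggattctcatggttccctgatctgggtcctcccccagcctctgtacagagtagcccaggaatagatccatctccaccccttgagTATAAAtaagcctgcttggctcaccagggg

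Ace, which makes angiotensin II and degrades bradykinin, is on chromosome 11 from 105967945 to 105989964. Its FPKM was 4.10 on 659 fragments in the sham library and 4.40 on 810 fragments in the irradiated library. The difference was 0.10 with an interval of the ratio from -0.05 to 0.25, which as a fold is 0.968 to 1.19.

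The table holds 1 row for Ace, although the gene is known to have a start for the somatic enzyme and another, inside the gene, for the shorter enzyme of male germ cells. RefSeq lists both, the first at the start of exon 1 and the second in intron 12, and they are printed here because the Ace value cannot be split between them. The first held the GC box GGGCGG in 4 places, of which 2 overlap, and the TATA motif on the reverse strand at -31 to -26. The second held only the motif CCAAT, on the reverse strand at -25 to -21. Matches are in capitals. On both strands, the TATA motif was found in 12.4% of all 32851 RefSeq promoters over the same 250 bases, the CCAAT motif in 33.8%, and the GC box in 32.7%. The predicted gene Gm11651, which overlaps Ace on the other strand, had no fragments in either library.
Ace, exon 1 start, chr11:105967698-105967947, plus strand (RefSeq, GRCm38): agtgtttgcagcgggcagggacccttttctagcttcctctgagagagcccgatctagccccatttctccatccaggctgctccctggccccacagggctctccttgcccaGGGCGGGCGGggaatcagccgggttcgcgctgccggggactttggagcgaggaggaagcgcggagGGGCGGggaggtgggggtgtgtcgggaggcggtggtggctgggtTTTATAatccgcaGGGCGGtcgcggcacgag
Ace, intron 12 start, chr11:105974939-105975188, plus strand (RefSeq, GRCm38): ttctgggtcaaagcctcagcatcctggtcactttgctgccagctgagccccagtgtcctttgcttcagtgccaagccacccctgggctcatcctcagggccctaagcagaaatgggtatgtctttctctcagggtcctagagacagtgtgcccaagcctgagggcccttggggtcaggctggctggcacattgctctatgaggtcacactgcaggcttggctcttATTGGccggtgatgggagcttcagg

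Enpep encodes aminopeptidase A, which trims angiotensin II to angiotensin III. It lies on chromosome 3 from 129269177 to 129332749 and was the most abundant peptidase of the 9 genes, with about 1444 fragments in the sham library and 1541 in the irradiated library. Its FPKM of 10.7 and 9.96 gave a difference of -0.10, with an interval of the ratio from -0.21 to 0.0039, which includes 0. That upper end is below the median difference of 0.02 over expressed genes, so whether the interval includes 0 depends on how the libraries are scaled. Per length, Enpep exceeded Ace by a ratio of 2.61 (2.38 to 2.86) in the sham library and 2.26 (2.08 to 2.47) in the irradiated library, so the enzyme that consumes angiotensin II had more transcript than the enzyme that makes it.

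Mme, which encodes neprilysin, a peptidase of kinins and of angiotensin I, is on chromosome 3 from 63295435 to 63383713. Only 39 fragments in the sham library and 66 in the irradiated library fell on its 8.745 kb, an FPKM of 0.147 and 0.216. The ratio of fragments was 0.56 on the log2 scale, with an interval from -0.03 to 1.17, while the difference on the deposited scale was 0.36 because the added 0.1 is close to the FPKM itself. That ratio is close to the 0.62 of Bdkrb2, but it rests on few fragments and its interval includes 0.

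Angiotensin receptor transcripts were almost all of Agtr1a. It lies on chromosome 13 from 30336356 to 30382867 and had an FPKM of 3.29 on 229 fragments in the sham library and 2.71 on 216 fragments in the irradiated library. The difference was -0.27, with an interval of the ratio from -0.55 to -0.0043. This interval ends so close to 0 that rounding decides it, and with 228 and 217 fragments, which the 2 deposited decimals also allow, it ran to 0.0087 and included 0. The summed fibroblast and progenitor markers were lower in the irradiated library (4312 against 5239), a sum made up largely of the collagen genes Col1a1, Col1a2, and Col3a1. The list as a whole was split, with 6 of the 12 lower and 6 higher. The counting interval was below 0 for all 6 lower and above 0 for 4 higher genes, beside 17.4% and 23.8% of expressed genes. The receptor kinase gene Pdgfra differed by -0.37 and the matrix gene Postn by -0.55, while the surface marker Thy1 differed by 0.40 and the fibronectin gene Fn1 by 0.20. Their part in the Agtr1a difference was not tested.

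Agtr2 (chromosome X, positions 21484624 to 21488833) had 2 fragments in the sham library and 1 in the irradiated library, and Agtr1b, the second mouse type 1 receptor, had 1 and 2. Agtr1a exceeded Agtr2 per length by a ratio of 144 (39.4 to 1196) in the sham library and 272 (48.2 to 10780) in the irradiated library. Agtr1a and Agtr1b are close copies, so fragments could have been split between them in counting. Mas1 and Mrgprd, receptors of angiotensin peptides with opposing action, had no fragments in either library. Their exact intervals reached an FPKM of 0.049 and 0.039 in the sham library and 0.042 and 0.034 in the irradiated library. Agtrap, whose product binds the type 1 receptor and promotes its uptake into the cell, lies on chromosome 4 from 148077061 to 148088064. It had an FPKM of 6.40 and 6.13 on 787 and 864 fragments, a difference of -0.06 with an interval from -0.20 to 0.08. Per length, it exceeded Agtr1a by a ratio of 1.95 (1.68 to 2.27) in the sham library and 2.27 (1.95 to 2.64) in the irradiated library.

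Both kinin receptors lie side by side on chromosome 12, and the inducible one was the more abundant in both libraries. Bdkrb1, from 105604091 to 105605428, had an FPKM of 10.2 on 419 fragments in the sham library and 11.2 on 525 fragments in the irradiated library. Bdkrb2, from 105563172 to 105593071, had an FPKM of 1.06 on 54 fragments and 1.62 on 95 fragments, respectively. Per length, Bdkrb1 exceeded Bdkrb2 by a ratio of 9.73 (7.32 to 13.2) in the sham library and 6.93 (5.56 to 8.72) in the irradiated library.

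Bdkrb2 had the largest difference of the 9 genes, 0.57, with a fold of 1.54 between the libraries (1.09 to 2.19). Bdkrb1 had a difference of 0.13 and a fold of 1.09 (0.961 to 1.25). The fold of Bdkrb2 over that of Bdkrb1 was 1.40 with an exact counting interval from 0.969 to 2.05, so their folds could not be told apart at this depth. Markers of several other cells were also higher in the irradiated library. Of the macrophage markers 10 of 12 were higher (summed FPKM 617.3 in the sham and 658.1 in the irradiated library, or 174.8 and 248.0 without Lyz2, the most abundant, which was lower), of the pericyte and smooth muscle markers 7 of 8 (134.6 and 137.8), and of the endothelial markers 6 of 8 (43.6 and 47.4). The mesothelial markers differed most, with 7 of 8 higher (34.5 and 49.5), 5 of 8 by at least 1, and a median difference of 1.255. Of all 11253 expressed genes, 6020 were higher in the irradiated library, and 0.791% were higher by at least 1. Counting intervals lay above 0 for 8 macrophage, 6 pericyte and smooth muscle, 3 endothelial, and 7 mesothelial markers, beside 23.8% of expressed genes. They lay below 0 for 1 macrophage, 1 pericyte and smooth muscle, and 1 mesothelial marker, beside 17.4%. Msln, which encodes mesothelin, differed by 2.18 and the keratin gene Krt19 by 1.46, while Wt1, the most abundant of the list, differed by -0.13. None of the markers in these 4 lists was at 0. Their part in the Bdkrb2 difference was not tested. The 250 bases before the Bdkrb2 start, shown because this gene had the largest difference, held none of the 3 motifs, which says only that these letters are not in this window.
Bdkrb2, chr12:105562922-105563171, plus strand (RefSeq, GRCm38): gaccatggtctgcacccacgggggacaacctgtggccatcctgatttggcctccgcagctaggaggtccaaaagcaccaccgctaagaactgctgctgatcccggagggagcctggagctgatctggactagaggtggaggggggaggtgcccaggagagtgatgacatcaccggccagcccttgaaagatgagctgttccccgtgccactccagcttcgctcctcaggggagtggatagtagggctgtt

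The other genes that make or remove these peptides were taken from lists by role, 50 genes in all, of which 49 were found and 29 were expressed. Of these 29, 0 differed by at least 1, beside 1.16% of expressed genes, and 2 by at least 0.5, both lower in the irradiated library, beside 1.44% lower. The counting interval was above 0 for 14 and below 0 for 5, beside 23.8% and 17.4% of expressed genes, and intervals are narrower for genes with more fragments. The median difference of the 29 was 0.09.

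**Figure D3:**
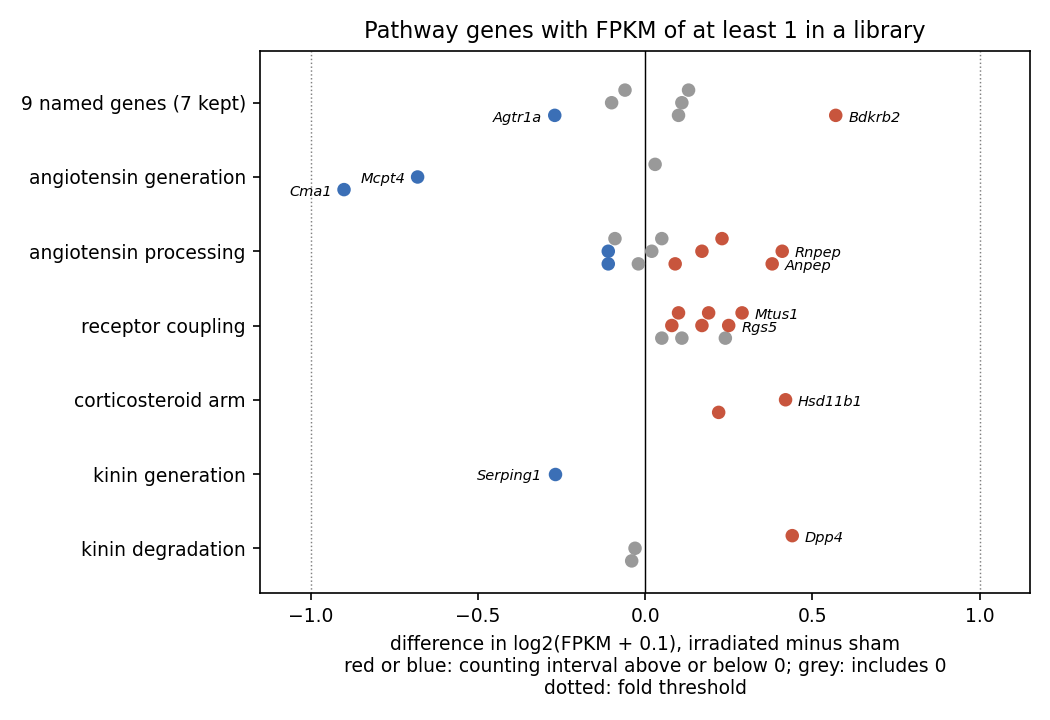
Difference in log2(FPKM + 0.1), irradiated minus sham, for the expressed genes, by role, with 1 point per gene. Red and blue points have a counting interval above and below 0, grey points include 0, and the dotted lines mark the fold threshold, which no gene crosses. Cma1 and Mcpt4 lie farthest to the left.

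The listed proteases that can make angiotensin II without Ace were lower in the irradiated library. Cma1 encodes a mast cell chymase that cuts angiotensin I to angiotensin II, and its FPKM was 4.40 on 146 fragments in the sham library and 2.31 on 88 fragments in the irradiated library. The difference was -0.90, with an interval of the ratio from -1.32 to -0.53. Mcpt4, another mast cell chymase, was at 3.22 and 1.97, a difference of -0.68 (-1.18 to -0.24). Ctsg, which encodes cathepsin G, had 9 fragments in the sham library and 0 in the irradiated library, at least 3.43-fold lower when the 9 are taken as exact and set against a floor of 3 fragments in the irradiated library. With the counting error of both libraries, the upper bound of the log2 ratio was -1.18. Mouse chymases form a family of similar genes on chromosome 14, so fragments could have been split between them in counting. Atp6ap2, the prorenin receptor and a part of the proton pump, was at 40.4 and 41.3, a difference of 0.03 (-0.04 to 0.10). Ren1 was not analysed here.

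Other mast cell markers were lower as well. All 7 markers were lower in the irradiated library, beside 7558 of the 24091 listed genes, and none was at 0. Of the 5 expressed, 5 had a counting interval below 0, beside 17.4% of expressed genes. Fcer1a and Ms4a2 were below an FPKM of 1, and their intervals included 0. Without Cma1 and Mcpt4, which the marker list shares with the chymases, the summed FPKM was 11.5 in the sham library and 6.54 in the irradiated library. Tpsb2, a mast cell tryptase, differed by -1.0, Cpa3, a mast cell carboxypeptidase that can also act on angiotensin I, by -0.74, and Kit, the stem cell factor receptor, by -0.39. Their part in the chymase differences was not tested.

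**Figure D4:**
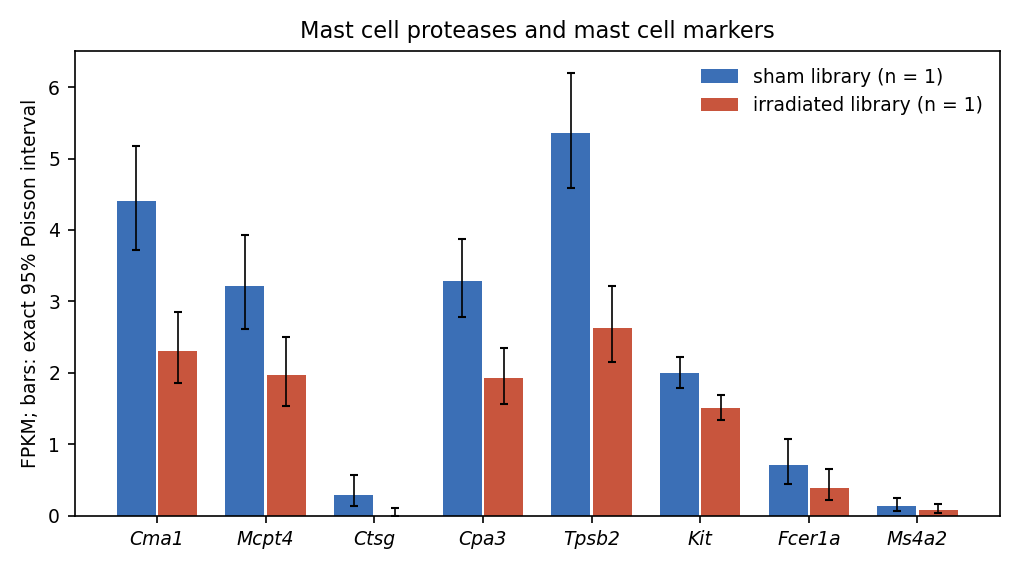
FPKM of the chymases Cma1 and Mcpt4, of cathepsin G (Ctsg), and of 5 mast cell markers in the sham (blue) and irradiated (red) library, 1 library each, with exact 95% Poisson intervals as error bars. All 8 are lower in the irradiated library, and Ctsg has no fragments there. The counting intervals of the ratio of Fcer1a and Ms4a2 include 0.

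Among 13 peptidases and carriers that process angiotensin peptides, 11 were expressed, 5 with a counting interval above 0 and 2 below, beside 23.8% and 17.4% of expressed genes. Rnpep, aminopeptidase B, was at 21.0 and 28.0, a difference of 0.41 (0.32 to 0.51), and Anpep, aminopeptidase N, which trims angiotensin III, was at 20.6 and 26.8, a difference of 0.38 (0.31 to 0.46). The endothelin-converting enzyme Ece1 differed by 0.23, the angiotensin IV binding peptidase Lnpep by 0.17, and the dipeptidyl peptidase Dpp3 by 0.09, with a lower bound at 6e-05 that rounding of the deposited values could move below 0. Prep and Erap1 both differed by -0.11, with intervals from -0.17 to -0.05 and from -0.20 to -0.02. Anpep and Rnpep thus exceeded Enpep in FPKM in both libraries.

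Transcripts of the kinin ligands were scarce. Kng1, which encodes kininogen, had 11 fragments in the sham library and 5 in the irradiated library, with an interval that includes 0, and its copy Kng2 had 66 and 43, a difference of -0.70 (-1.40 to -0.24). As close copies, they could have shared fragments in counting. Klk1 (tissue kallikrein) and F12 (the contact factor that activates plasma kallikrein) had no fragments in either library, and Klkb1, plasma kallikrein, had 4 and 0. Serping1 encodes the inhibitor of plasma kallikrein and of complement, and it was the most abundant gene of all these lists. Its FPKM was 229.0 and 189.9, a difference of -0.27 (-0.31 to -0.23).

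Of the 8 peptidases that trim kinins, 3 were expressed. Dpp4, which removes dipeptides and is also a progenitor marker, was at 0.886 and 1.24, a difference of 0.44 (0.21 to 0.77). Cpd at 30.8 and 30.2 and Xpnpep1, a kinin-degrading aminopeptidase P, at 28.1 and 27.4 had intervals that include 0. Xpnpep2, the membrane form of aminopeptidase P, was below an FPKM of 1 in both libraries, with 40 fragments in the sham library and 81 in the irradiated library, a difference of 0.67 (0.26 to 1.41). Cpn1, Cpn2, and Cpb2, which encode plasma carboxypeptidases of kinins, had no fragments in either library.

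The intracellular partners of these receptors differed little. Of 10 genes listed, 9 were expressed, all 9 were higher in the irradiated library, beside 6020 of the 11253 expressed genes, and 6 had a counting interval above 0, beside 23.8%. The tenth, Zbtb16, which encodes a partner of the type 2 receptor, was below an FPKM of 1 and differed by -0.10 (-0.66 to 0.41). The differences of the 9 ran from 0.05 for Gna11 to 0.29 for Mtus1, which encodes another such partner. Rgs5, which limits signalling of these receptors in pericytes, differed by 0.25 (0.15 to 0.35), the receptor kinase Grk5 by 0.19, the arrestin Arrb1 by 0.17, the G protein subunit Gnaq by 0.10, and the receptor kinase Grk2 by 0.08, whose interval included 0 once rounding was allowed for.

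Fat pads of male mice adjoin the epididymis, whose epithelium is rich in peptidases, and the sex of the mice is not given. Of 6 epididymal markers, 5 had no fragments in either library and the remaining one, Rnase10, had an FPKM of 0.807 and 0.617. Lymphocyte markers were all below an FPKM of 1, with a summed FPKM of 1.73 and 0.937.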

How the data were processed

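RNA sequencing of 2 libraries, 1 per condition, was analysed, and groups were taken from the treatment label. The authors deposited gene levels as log2 of FPKM, with 0.1 added before the logarithm, to 2 decimals, and gave each gene's length and coordinates beside them. The labels name the build mm10 (GRCm38) and a stranded preparation of polyadenylated RNA. Not given in the sources used here were the aligner, the counter, its use of strand, and the filters.

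Each value was taken as a power of 2, and 0.1 was subtracted to return to FPKM. The depth was the library total that turned the values of sparse genes into whole fragments. It did so, to a tolerance of 0.12, for 2610 of 2610 sparse genes (sham) and 2807 of 2807 (irradiated). This was tested on simulated data. Fragments of abundant genes are approximate because of the rounding. For a gene of 1 kb, 3 fragments equal an FPKM of 0.0981 (sham) and 0.0857 (irradiated), the limit that a count of 0 allows.

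Counts past the fold used expressed genes. The rule named the 9 genes, those of the role lists that were expressed with an interval off 0 or had no fragments, and the defining markers near 0. Further names were added with values in view, among them Agtr1b, Atp6ap2, Kng1, Kng2, Klkb1, Gna11, Cpd, Xpnpep1, Xpnpep2, Zbtb16, Ctsg, Nr3c2, Hsd11b2, Gm11651, and single cell type markers. The members and lists were chosen with earlier results of these data known. Of the 9 members, 7 had a promoter in the RefSeq table. Ren1, Muc16, and Trbc2 were not analysed here, and not every listed gene is reported by name. Scripts ran under Python 3.11.15 with SciPy 1.17.1 for intervals, pandas 2.3.3 and numpy 2.4.6 for tables, and matplotlib 3.10.9 for plots.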

Additional observations from a re-analysis of the deposited data

How the results depend on the processing

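No paired analysis was possible because there was a single library of each kind, and leaving out a replicate was likewise not possible. The 9 genes gave 36 values under a pseudocount of 1, nothing added to FPKM, centring on the median difference, and scaling without the 100 most abundant genes. All 36 moved by less than the half-width of the counting interval. That limit is loose where fragments are few (for Agtr2 the interval ran from -7.08 to 3.07), so it does not show that a value is stable. The difference of Bdkrb2 was 0.35 with a pseudocount of 1 and 0.61 with nothing added, that of Mme 0.09 and 0.56, and that of Agtr2, on 2 and 1 fragments, -0.02 and -1.12. Centring moved each of the 9 differences by -0.02. The scaling shifted the log2 ratio between the libraries by -0.014 before the 0.1 was added, so genes of low FPKM moved by other amounts. Both shifts exceed in size the 0.0039 by which the Enpep interval passes 0, so its call by the counting interval depends on the scaling. The count of the 9 genes past the fold was 0 and became 1 with a threshold of 0.5, 2 when the counting interval was the rule, and 1 when the fragments were moved toward no difference within the rounding, a setting chosen after seeing the data, which ends the call of Agtr1a. The count of pathway genes was 0 and became 1 without a filter (Ctsg), 2 with a threshold of 0.5, 19 by the counting interval, and 17 with the rounding allowed for. Depth limits Agtr2 and Agtr1b, which had 1 or 2 fragments in each library.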

Other observations

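Genes of the corticosteroid arm downstream of angiotensin were measured with the same 2 libraries and without a replicate check. Cyp11b2, which makes aldosterone, had no fragments in either library, and Hsd11b2, which protects the mineralocorticoid receptor from corticosterone, had 2 and 1. The receptor itself, Nr3c2, was at an FPKM of 0.225 on 28 fragments in the sham library and 0.274 on 39 fragments in the irradiated library. Hsd11b1, which regenerates active corticosterone and is typical of fat, was higher in the irradiated library, with an FPKM of 10.5 and 14.0 and a difference of 0.42 (counting interval of the ratio 0.26 to 0.59). Sgk1, a kinase induced by corticosteroids and by cell stress, was at 28.7 and 33.5, a difference of 0.22 (0.16 to 0.28). Both are among the 23.8% of genes with a counting interval above 0.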
